A study of Mus musculus with 6 samples.

Results

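The genes described here encode the dystrophin-associated protein complex and the water channel that it holds at the endfeet of astrocytes. They are Sspn, Dmd, Dag1, Sgcb, Sgcd, Sgce, Dtna, Utrn and Aqp4. Every isoform whose transcript name belongs to one of these 9 genes was taken from the deposited isoform counts, which gave 67 of 133944 isoforms and 9 of 53354 gene symbols. Sspn and Aqp4 were chosen by their normalized counts, which were higher in N-cre;Fox1 mice in these same libraries, and the other 7 genes were added because their products bind or resemble those of the complex. The difference between genotypes in Sspn and Aqp4 is therefore a description, with its p-values given only as part of that description. Hippocampal RNA was sequenced with 1 library per mouse from 2 genotypes of C57BL/6 mice aged 3 months, N-cre (n = 3) and N-cre;Fox1 (n = 3). Both genotypes carried Nes-cre, the Cre recombinase under the nestin promoter, which is active in neural progenitors. The N-cre;Fox1 mice also carried 1 R26-Rbfox1 allele at Gt(ROSA)26Sor, in which the CAG promoter expresses Rbfox1 once Cre has removed a STOP cassette. The study followed this Cre with a LacZ reporter in hippocampal neurons. By immunostaining of both genotypes it also reported that Rbfox1 did not co-localize with GFAP, a marker of glia. In which cells the transgene was active was not measured in these libraries.

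Dystrophin links the actin skeleton to the membrane protein dystroglycan, which binds laminin and agrin in the basement membrane outside the cell. Sarcoglycans and sarcospan sit beside dystroglycan in the membrane, and dystrobrevins and syntrophins bind the dystrophin tail inside the cell. In the brain, short dystrophin forms and alpha-dystrobrevin help to anchor aquaporin-4 and the potassium channel Kir4.1 in the endfoot membrane that faces blood vessels. Utrophin is the close relative of dystrophin.

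The expected counts, which are the read pairs that RSEM assigned to an isoform, summed to 40463587 to 62141336 per mouse. The normalized count of Rbfox1, the gene in the transgene, was 15286, 14456 and 14698 in N-cre replicates 1 to 3 and 15939, 13571 and 15283 in N-cre;Fox1 replicates 1 to 3. The genotypes overlapped in it, so the sum over Rbfox1 isoforms does not tell the labels apart. By other measurements the study reported modestly more Rbfox1 in N-cre;Fox1 hippocampi, as mRNA with the data not shown and as protein by immunoblot. The summed normalized count of 10 choroid plexus markers was 168083 in N-cre replicate 3 and 367151 in N-cre;Fox1 replicate 2, against 9029 to 9807 in the other 4 mice. Markers of neurons and of astrocytes were high in every mouse. Xist, which is transcribed from an inactive X chromosome, had 23514 and 22029 normalized counts in replicate 1 of N-cre and of N-cre;Fox1, and 17.3 to 22.1 in the other mice. Each genotype thus held 1 library high in Xist and 1 library rich in choroid plexus genes.

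The higher counts of Sspn and Aqp4 were not accompanied by a called difference in any other gene of the complex. By edgeR's quasi-likelihood test, with p-values adjusted by the Benjamini-Hochberg method over all genes, 1 of the 9 genes, Sspn, had an adjusted p under 0.05, and over all genes 5 of 18924 did (0.0264%). In 4 of the 6 fits that left out 1 mouse, 0 of the 9 were called. All 9 genes had enough counts to be tested. The counts of Sspn, Aqp4 and Dtna were higher in every N-cre;Fox1 mouse than in any N-cre mouse, a pattern that 6.04% of all genes tested showed, and the genotypes overlapped in the other 6. The median log2 fold change was 0.06 over the 7 genes other than Sspn and Aqp4, with 5 above and 2 below 0, beside 0.00 over all genes tested. Of the 67 isoforms, 31 had enough counts to be tested and 12 had no count in any mouse. By edgeR 0 of these 31 passed an adjusted p of 0.05, as did 0 of 50556 isoforms (0.0%). On simulated counts the isoform fit recovered 15% of isoforms changed 2-fold, so true differences could go uncalled. Sspn-201, Dtna-202 and the isoform of Aqp4 had an unadjusted p under 0.05, where 4.78% of all isoforms did, and all 3 were higher. DESeq2's Wald test called Sspn-201 alone among the members' isoforms, and limma-voom called 0. The p-values set the difference between genotypes against the spread among mice of the same genotype. The labels do not say whether the mice of a genotype were littermates, so an effect of litter was not tested.

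**Figure D1:**
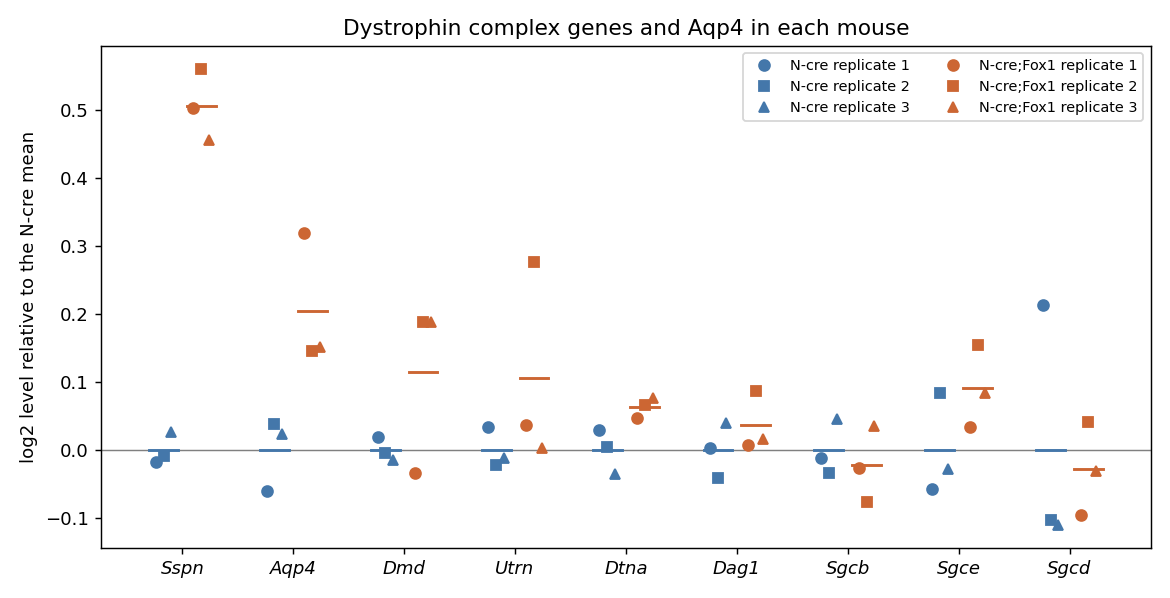
Level of each of the 9 genes in each mouse, as the log2 ratio to the mean of the N-cre mice, for N-cre (blue) and N-cre;Fox1 mice (orange), with the shape of a point marking the replicate and a bar the genotype mean. Sspn lies from 0.46 to 0.56 in the N-cre;Fox1 mice, Aqp4 from 0.15 to 0.32, and only these 2 genes and Dtna show no overlap.

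Sspn (ENSMUSG00000030255.13), on chromosome 6 from 145931641 to 145965223 of mm10, encodes sarcospan, a small membrane protein that binds the sarcoglycans. The normalized count was 687, 692 and 709 in N-cre replicates 1 to 3 and 998, 1039.9 and 964 in N-cre;Fox1 replicates 1 to 3. The lowest N-cre;Fox1 mouse lay well above the highest N-cre mouse. The means were 696 ± 11.7 (SD, n = 3) and 1001 ± 37.9 (SD, n = 3), a log2 fold change of 0.52 ± 0.0598 (SE), or 1.44-fold. The edgeR adjusted p was 0.0155, rank 5 of the 18924 genes by p. The call was lost when N-cre replicate 1, 2 or 3 or N-cre;Fox1 replicate 3 was left out, at an edgeR adjusted p of 0.102, 0.304, 0.138 and 0.114. Without the libraries of N-cre replicate 3 and N-cre;Fox1 replicate 2 the log2 fold change was 0.51 with an edgeR adjusted p = 0.0849. Sspn lies 32.9 Mb from Gt(ROSA)26Sor, the locus of the transgene on the same chromosome, and a role of that linkage was not tested.

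Nearly all Sspn counts belonged to a single isoform. Sspn-201, with 3 exons and a coding region for 216 amino acids, took 94.7% to 100% of the Sspn counts in the N-cre mice and 97.6% to 100% in the N-cre;Fox1 mice, and the shares overlapped. Its normalized count was 688, 656 and 676 in the N-cre mice and 975, 1040.5 and 939 in the N-cre;Fox1 mice, at a log2 fold change of 0.55 ± 0.0675 (SE). The edgeR adjusted p over all isoforms was 0.417. Sspn-203, with 4 exons, averaged 22.8 normalized counts in N-cre and 15.1 in N-cre;Fox1 mice, and Sspn-202 had no count. Sspn-201 shares 94.4% of its bases with the other isoforms, so its share rests on how RSEM divided the reads. The 250 bases before its start, at chr6:145933872-145934121 of GRCm38.p6 on the plus strand, are shown because most Sspn counts were assigned to the isoform which starts there. They are RefSeq's, and this window held 6 CpG, the median of 32851 such windows, and no GC box, TATA box or CCAAT box on either strand, with the letters of the first and the second given with the Dmd windows. Of all windows 32.7%, 12.4% and 33.8% held these motifs.
Sspn-201: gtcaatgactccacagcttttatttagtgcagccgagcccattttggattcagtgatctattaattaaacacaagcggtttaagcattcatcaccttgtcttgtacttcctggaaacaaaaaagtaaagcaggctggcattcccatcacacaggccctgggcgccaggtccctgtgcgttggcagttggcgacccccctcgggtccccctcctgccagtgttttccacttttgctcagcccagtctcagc

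Aqp4 (ENSMUSG00000024411.10) encodes aquaporin-4, the main water channel of astrocytes. Its normalized count was 8862, 9487 and 9391 in N-cre replicates 1 to 3 and 11536, 10226 and 10267.5 in N-cre;Fox1 replicates 1 to 3. The genotypes did not overlap, and N-cre;Fox1 replicate 1 lay above the rest. The means were 9247 ± 337 (SD, n = 3) and 10677 ± 745 (SD, n = 3), a log2 fold change of 0.21 ± 0.0510 (SE), or 15.5% more. The edgeR adjusted p was 0.595, at an unadjusted p of 0.00225. DESeq2's Wald test called Aqp4, at an adjusted p of 0.0395, as did edgeR with no filter on low counts, at 0.0320, and limma-voom did not. Without the libraries of N-cre replicate 3 and N-cre;Fox1 replicate 2 the log2 fold change was 0.25, and without N-cre;Fox1 replicate 1 it was 0.15. Only 1 Aqp4 isoform is in the annotation used, so the counts do not separate the forms of the channel that start at different codons. In bulk RNA more cells of a type and more RNA per cell cannot be told apart.

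Dmd (ENSMUSG00000045103.17), the dystrophin gene, lies on the X chromosome from 82948870 to 85206141. Dmd had a normalized count of 2492, 2451 and 2432 in N-cre replicates 1 to 3 and 2401, 2805 and 2807 in N-cre;Fox1 replicates 1 to 3. The genotypes overlapped, since N-cre;Fox1 replicate 1 had the lowest count of the 6 mice. The log2 fold change was 0.12 ± 0.0582 (SE, edgeR adjusted p = 0.808). Without N-cre;Fox1 replicate 1 it was 0.20 (edgeR adjusted p = 0.116), and without replicate 2 or 3 of that genotype 0.09 or 0.08. Without the libraries of N-cre replicate 3 and N-cre;Fox1 replicate 2 it was 0.08. N-cre;Fox1 replicate 1 was also the mouse of that genotype with high Xist, while the N-cre mouse with high Xist had the highest Dmd count of its genotype.

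Of the 14 Dmd isoforms 6 passed the filter on low counts, and most Dmd counts were assigned to the isoforms of its last promoter. Dmd-201, with 18 exons and a coding region for 617 amino acids, is the short form known as Dp71, which keeps the dystroglycan-binding end of the protein and lacks the actin-binding end. It took 86.1%, 83.8% and 84.1% of the Dmd counts in N-cre replicates 1 to 3 and 86.1%, 83.5% and 86.3% in N-cre;Fox1 replicates 1 to 3. These shares overlapped between the genotypes. All bases of Dmd-201 are also part of other Dmd isoforms, so the shares rest on how RSEM divided the reads. Dmd-203, the full-length form of 79 exons and 3678 amino acids, took 5.24%, 6.26% and 8.04% in N-cre and 4.38%, 5.55% and 4.89% in N-cre;Fox1 mice. Dmd-201 had a log2 fold change of 0.13 ± 0.0674 (SE) and Dmd-203 one of -0.27 ± 0.224 (SE), and the counts of both overlapped between the genotypes. Isoforms that start at Dmd-201 together held 86.2% to 89.9% of the counts in each mouse. Per molecule, after division by length, they held 73.5% to 83.0%. The fragment Dmd-204, of 596 bases, took 1.81% of the counts and 11.4% of the molecules on average, and Dmd-203 took 5.73% of the counts and 1.46% of the molecules.

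The windows before the starts of Dmd-201 and Dmd-203 are shown because the first isoform took most Dmd counts and the second few. The RefSeq window of Dmd-201 lies at chrX:85048045-85048294 and that of Dmd-203 at chrX:82948620-82948869, both of GRCm38.p6 and on the plus strand, and the RefSeq starts lie 118 and 33 bases before those of the isoforms. Capitals mark the GC box (GGGCGG on either strand, with a pair that overlaps) in the first and the TATA box (TATAAA on either strand) in the second. The Dmd-201 window held 3 GC boxes and 7 CpG, and the Dmd-203 window held 1 TATA box and 2 CpG. The TATA box letters lie at the end of the Dmd-203 window far from the start, on the strand opposite the gene. Whether any of these letters act in a promoter was not tested.
Dmd-201: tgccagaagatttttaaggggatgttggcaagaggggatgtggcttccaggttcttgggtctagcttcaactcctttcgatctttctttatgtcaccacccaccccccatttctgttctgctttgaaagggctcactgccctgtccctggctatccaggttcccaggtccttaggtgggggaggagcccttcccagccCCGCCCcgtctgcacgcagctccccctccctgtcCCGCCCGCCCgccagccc
Dmd-203: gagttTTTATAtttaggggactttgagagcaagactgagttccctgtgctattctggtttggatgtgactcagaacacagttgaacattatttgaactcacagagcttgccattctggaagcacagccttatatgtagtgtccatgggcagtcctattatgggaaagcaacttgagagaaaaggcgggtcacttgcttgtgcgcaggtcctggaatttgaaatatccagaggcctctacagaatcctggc

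The short and the long forms can be told apart by reads in exons of only the one or the other and by reads across the junction into their first shared exon, which is shown here. For Dmd this exon is exon 2 of Dmd-201, which is exon 63 of Dmd-203, from X chromosome position 85053971. For Utrn it is exon 2 of Utrn-206 and Utrn-204 and exon 51 of Utrn-201, which ends at position 12538213 of chromosome 10, where the gene is on the minus strand. The last 15 bases of the exon before it are in capitals and the first 15 bases of the shared exon in lower case.
Dmd-201: GGAACACCTCAAAGGccacgagacccaaac
Dmd-203: GCCCTACTATATCAAccacgagacccaaac
Utrn-206: ACAAAATTTGAAAAGgacatccaggcagaa
Utrn-204: CAGAAGCTCTGCAAGgacatccaggcagaa
Utrn-201: CGACAGCAGATGCTGgacatccaggcagaa

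Utrn (ENSMUSG00000019820.11), the utrophin gene on chromosome 10 from 12382188 to 12869365, had a normalized count of 2051, 1974 and 1986 in N-cre replicates 1 to 3 and 2055, 2432 and 2008 in N-cre;Fox1 replicates 1 to 3. N-cre;Fox1 replicate 2 stood above the other 5 mice, which overlapped. The log2 fold change was 0.11 ± 0.0693 (SE, edgeR adjusted p = 0.863), and it was 0.02 without that mouse. This mouse also had the highest choroid plexus, endothelial, pericyte and meningeal marker sums, and their part in the Utrn count was not tested.

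As for Dmd, most Utrn counts came from short forms that lack the first exons of the long one. Utrn-206, with 25 exons and 956 coding amino acids, took 73.0%, 74.7% and 75.0% of the Utrn counts in N-cre replicates 1 to 3 and 72.3%, 65.5% and 70.2% in N-cre;Fox1 replicates 1 to 3. Its share was lower in every N-cre;Fox1 mouse, by a narrow gap, as were the shares of 5.29% of 45227 isoforms tested whose gene had another isoform with counts, while its own count, at a log2 fold change of 0.01 ± 0.0584 (SE), overlapped. Utrn-204, also with 25 exons, had a log2 fold change of 0.46 ± 0.231 (SE). The full-length Utrn-201, with 74 exons and 3430 coding amino acids, had 0.34 ± 0.232 (SE). Both overlapped between the genotypes. The short forms held 81.0% to 87.4% of the Utrn counts in each mouse, and 90.5% to 93.4% per molecule. Almost all bases of Utrn-201 and 83.8% of those of Utrn-206 are also part of another isoform, so these shares rest on how RSEM divided the reads.

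**Figure D2:**
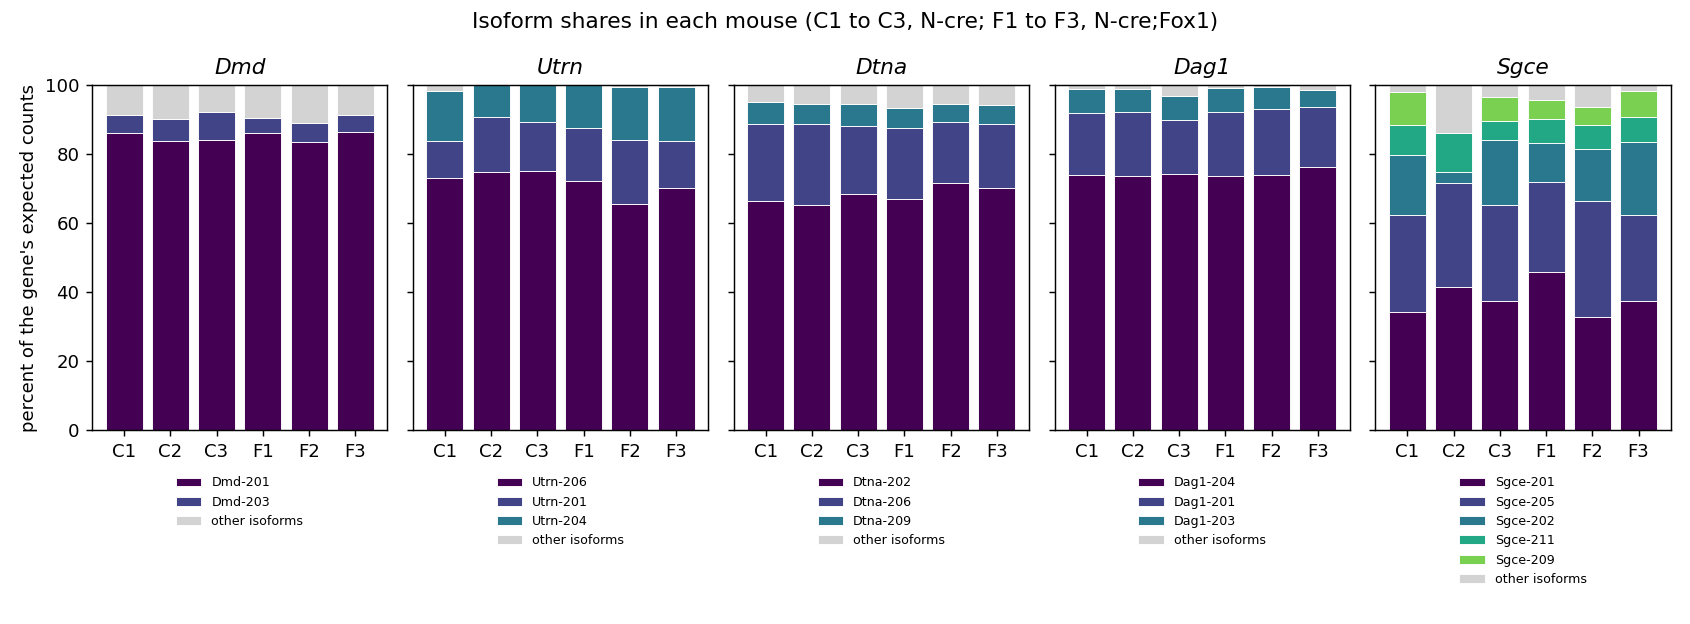
Share of each named isoform in the expected counts of Dmd, Utrn, Dtna, Dag1 and Sgce, in percent, with a stacked bar for each mouse (C1 to C3, N-cre replicates 1 to 3, and F1 to F3, N-cre;Fox1 replicates 1 to 3). Dmd-201 fills 83.5% to 86.3% of every Dmd bar, and the Utrn-206 segment spans 65.5% to 75.0%.

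Dtna (ENSMUSG00000024302.16) encodes alpha-dystrobrevin, which binds dystrophin and the syntrophins. Its normalized count was 8054, 7911 and 7698 in N-cre replicates 1 to 3 and 8151.5, 8261 and 8314 in N-cre;Fox1 replicates 1 to 3. The genotypes did not overlap in this count, by a narrow gap, and did overlap in the level per length given below. The log2 fold change was 0.06 ± 0.0335 (SE, edgeR adjusted p = 0.827). A non-overlap in either direction was seen in 12.1% of all genes tested, and Dtna was 1 of the 7 genes that were not picked for a difference. Dtna-202, the isoform with 21 exons and 682 coding amino acids, took 65.3% to 68.4% of the Dtna counts in the N-cre mice and 67.0% to 71.7% in the N-cre;Fox1 mice. This isoform had normalized counts of 5364, 5169 and 5260.3 in N-cre and 5463, 5928 and 5812 in N-cre;Fox1 mice, at a log2 fold change of 0.12 ± 0.0413 (SE). It was higher in every N-cre;Fox1 mouse, where 5.86% of all isoforms tested were, with an edgeR adjusted p = 0.990. Dtna-206, which codes for 567 amino acids and is shorter at its end, had a log2 fold change of -0.15 ± 0.0968 (SE), and Dtna-209, a fragment of 863 bases, -0.10 ± 0.0948 (SE). Both overlapped between the genotypes.

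Dag1 (ENSMUSG00000039952.15), on chromosome 9 from 108204634 to 108263958, encodes dystroglycan, the receptor for laminin. Its normalized count was 6797, 6591 and 6972 in N-cre replicates 1 to 3 and 6819, 7205 and 6859 in N-cre;Fox1 replicates 1 to 3. The genotypes overlapped, at a log2 fold change of 0.04 ± 0.0379 (SE, edgeR adjusted p = 0.941). Its 3 main isoforms, of 5662, 4364 and 4415 bases, all code for 893 amino acids and differ outside the coding region, and they took 74.3%, 17.8% and 6.44% of the counts on average. Their log2 fold changes were 0.05, 0.11 and -0.13, and each overlapped between the genotypes.

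The sarcoglycans, which sarcospan binds in muscle, overlapped between the genotypes in every case. Sgcb, for beta-sarcoglycan, on chromosome 5 from 73632749 to 73647790, had a normalized count of 3235, 3187 and 3368 in N-cre replicates 1 to 3 and 3202, 3094 and 3345 in N-cre;Fox1 replicates 1 to 3. Its log2 fold change was -0.02 ± 0.0397 (SE, edgeR adjusted p = 0.973).

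Sgce encodes epsilon-sarcoglycan, an imprinted gene that is mutated in myoclonus dystonia and the widespread sarcoglycan of the brain. It lies on chromosome 6 from 4674350 to 4747207, 108 Mb from Gt(ROSA)26Sor, and had a normalized count of 968, 1069.7 and 988 in N-cre and 1032, 1124 and 1069 in N-cre;Fox1 mice. These overlapped, at a log2 fold change of 0.09 ± 0.0613 (SE, edgeR adjusted p = 0.884). Of its 5 isoforms with at least 5% of the counts, 4 share nearly all bases with other Sgce isoforms, and Sgce-211 shares 80.5%. The division among them varied among mice of the same genotype. Sgce-202 took 17.4%, 3.07% and 18.7% in the N-cre mice and Sgce-209 took 9.55%, 0% and 6.96%, so the counts of single Sgce isoforms carry less than their sum. Sgcd, for delta-sarcoglycan, had 8 to 23 expected counts per mouse, and normalized counts of 19.7, 10.7 and 10.5 in N-cre and 10.8, 14.6 and 12.6 in N-cre;Fox1 mice. At this depth a difference was not detectable, with a log2 fold change of -0.15 and a standard error of 0.378, and none of its 4 isoforms passed the filter on low counts.

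Per length, Sspn was the second scarcest of the 9 genes although it showed the largest difference among them. On the TPM scale, which divides each expected count by the length of its isoform and then sets every library to the same sum, the mean of the 6 mice was 87.1 for Aqp4, 86.6 for Dtna, 58.8 for Dag1, 37.9 for Sgcb and 30.1 for Dmd. It was 27.3 for Sgce, 16.5 for Utrn, 8.46 for Sspn and 0.374 for Sgcd. Neighbours whose ranges over the 6 mice overlapped were Aqp4 and Dtna, and Dmd and Sgce. The level of Dtna includes the 863-base fragment Dtna-209, which made up 27.2% of its molecules and 5.72% of its counts. Unlike its counts, this level of Dtna overlapped, with 84.3 to 88.0 TPM among N-cre and 87.2 to 88.3 TPM among N-cre;Fox1 mice. With 150 bases taken off each length Dtna, at 81.6, came before Aqp4, at 77.5. The level of Sspn was 6.81 to 7.07 TPM among N-cre and 9.61 to 10.5 TPM among N-cre;Fox1 mice, against 37.9 for Sgcb, its partner in the complex. It was the second scarcest of the 9 genes in either genotype.

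**Figure D3:**
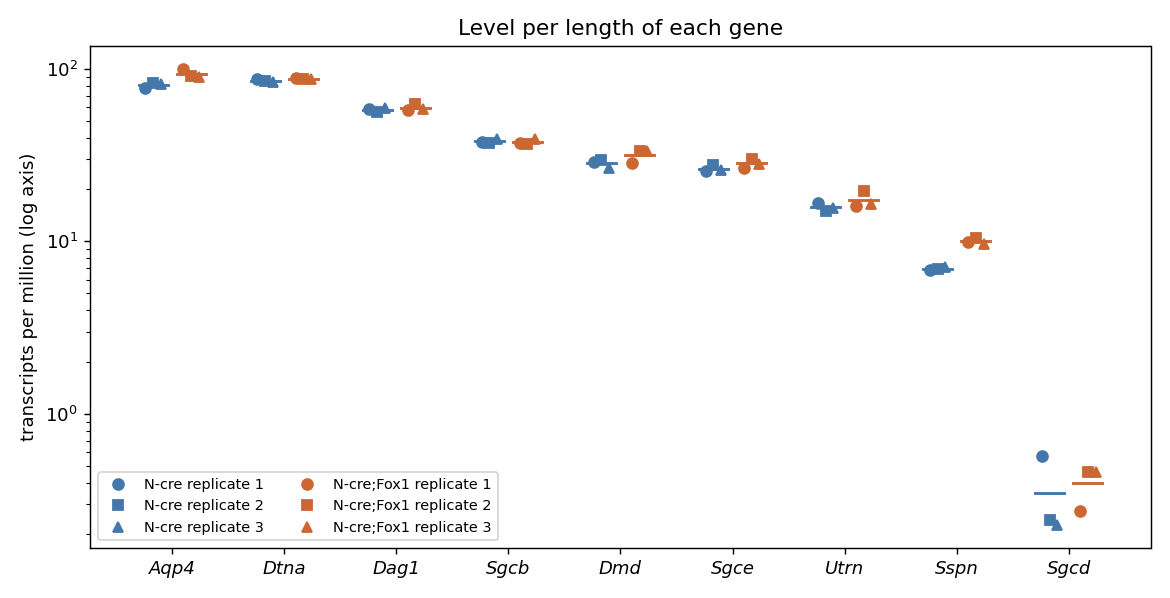
Level per length of the 9 genes in each mouse, in TPM on a log axis, for N-cre (blue) and N-cre;Fox1 mice (orange), with bars at the genotype means. The order from Aqp4 at 87.1 to Sgcd at 0.374 spans more than the difference between the genotypes in any gene.

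The remaining genes of the complex did not move together in a called way. Of 16 other dystrophin complex genes tested, 7 had a log2 fold change above and 9 below 0, where 50.0% of all genes lay above 0, with a median of -0.03, and edgeR, DESeq2 and limma-voom each called 0 at an adjusted p under 0.05. By edgeR 1 gene passed an unadjusted p of 0.05, where 6.19% of all genes did. That gene was Cav1, for the caveolar protein caveolin-1, at 622, 567 and 662 normalized counts in N-cre and 689, 757 and 672 in the N-cre;Fox1 group. This was a log2 fold change of 0.19 ± 0.0821 (SE, edgeR adjusted p = 0.799). Sntg1, for gamma-1-syntrophin, had 0.07 ± 0.0541 (SE), and Sync, for syncoilin, which binds dystrobrevin, -0.35 ± 0.261 (SE) at 21.3 to 35.7 normalized counts. Cav1 and Sntg1 were higher in every N-cre;Fox1 mouse, as were 6.04% of all genes, and Sync overlapped.

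Outside the cell, 15 of 20 extracellular partners of dystroglycan had a log2 fold change above 0, where 50.0% of all genes did. Their median was 0.06, and each of the 3 tests called 0. By edgeR 2 genes passed an unadjusted p of 0.05, where 6.19% of all genes did. Slit2, a guidance ligand that binds dystroglycan, had 1991, 2431 and 2307 normalized counts in N-cre and 2487, 2853 and 2557 in the N-cre;Fox1 group. This was a log2 fold change of 0.23 ± 0.0834 (SE), and Slit2 was higher in every N-cre;Fox1 mouse, as were 6.04% of all genes. Lamc1 and Lama4, for the laminin chains gamma-1 and alpha-4 of vessel basement membranes, had log2 fold changes of 0.13 and 0.27, with standard errors of 0.0481 and 0.139, and overlapped. Slit2, Lamc1 and Lama4 had their highest count in N-cre;Fox1 replicate 2, the library richest in choroid plexus and vessel markers. Without it 9 of the 20 genes lay above 0, with a median of -0.0063. Of 18 dystroglycan glycosylation enzymes, which build the sugar chain that laminin binds, 5 lay above and 13 below 0, with a median of -0.02, and each of the 3 tests called 0. By edgeR 0 genes passed an unadjusted p of 0.05. The smallest p-values were those of Pomk, B4gat1 and B3galnt2, with log2 fold changes of -0.07, -0.05 and 0.07.

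Among the other genes of the endfoot, Kcnj10 had a log2 fold change close to that of Aqp4. Of 13 such genes tested, 9 had a log2 fold change above and 4 below 0, with a median of 0.10 that was 0.0068 without N-cre;Fox1 replicate 2, and edgeR and limma-voom called 0 at an adjusted p under 0.05. By edgeR 4 had an unadjusted p under 0.05, where 6.19% of all genes did. Kcnj10, the gene of Kir4.1, had 9947, 9483 and 10443 normalized counts in N-cre replicates 1 to 3 and 12016, 11324 and 11535 in N-cre;Fox1 replicates 1 to 3. It did not overlap, at a log2 fold change of 0.22 ± 0.0422 (SE, edgeR adjusted p = 0.307). DESeq2's Wald test called it, at an adjusted p of 0.00141, and called no other gene of this list. Without the libraries of N-cre replicate 3 and N-cre;Fox1 replicate 2 its log2 fold change was 0.28, with an edgeR adjusted p = 0.0835.

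Gja1, for connexin 43, the gap junction protein between astrocytes, had 11002, 11167 and 11073 normalized counts in N-cre and 11870, 11569.8 and 12153 in N-cre;Fox1 mice. Slc16a1, for the lactate carrier MCT1, had 1757, 1926 and 1748 in N-cre and 1976, 2098 and 2059.6 in N-cre;Fox1 mice. Neither overlapped, and the log2 fold changes were 0.10 and 0.18 with standard errors of 0.0329 and 0.0502 and edgeR adjusted p-values of 0.756 and 0.660. The other connexins of the list, Gjb6 and Gjb2, overlapped, at -0.04 ± 0.185 (SE) and 0.10 ± 0.247 (SE). Clcn2, a chloride channel named here after its values were seen, was lower in every N-cre;Fox1 mouse, as were 6.1% of all genes, at a log2 fold change of -0.10 ± 0.0363 (SE). Other endfoot proteins of the same membrane overlapped between the genotypes, with log2 fold changes of 0.08 for Mlc1, -0.03 for Hepacam and -0.03 for Slc4a4. Kcnj10, Gja1 and Slc16a1 were 3 of 13 genes higher in every N-cre;Fox1 mouse, where 6.04% of all genes were. Aqp1 and Trpv4 followed the choroid plexus markers, with 714 and 505 normalized counts in N-cre replicate 3 and 1747 and 1039.5 in N-cre;Fox1 replicate 2, and at most 102 in the other mice.

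**Figure D4:**
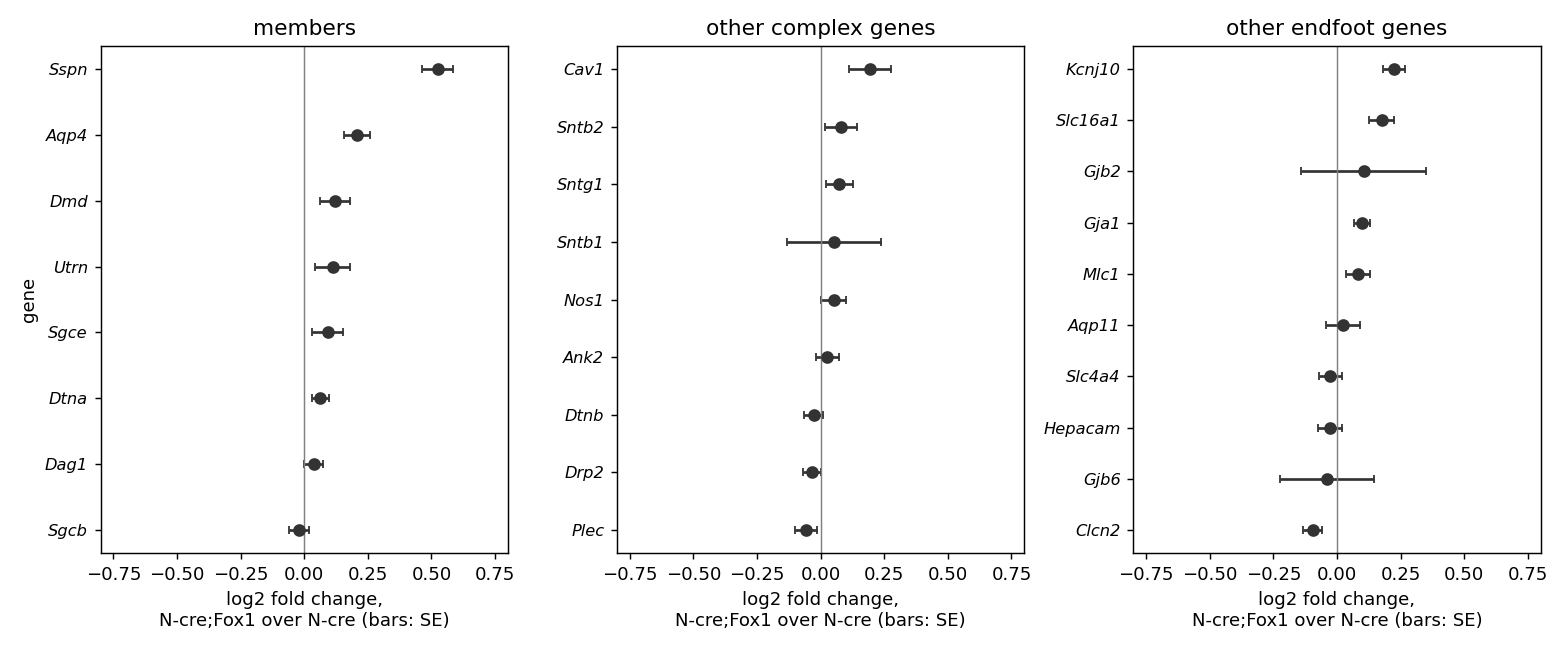
Log2 fold change of N-cre;Fox1 over N-cre mice (points) with its standard error (bars), for the members with Sgcd left out, for 9 of the other complex genes and 10 of the other endfoot genes, drawn from those with a mean of at least 100 normalized counts in N-cre and a standard error under 0.5. Sspn at 0.52 stands apart, and Kcnj10 at 0.22 lies beside Aqp4 at 0.21.

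Astrocyte markers lay as often above as below 0. Of 18 astrocyte markers 9 had a log2 fold change above and 9 below 0, with a median of 0.00, and their summed normalized count overlapped, with 368996 to 398406 among N-cre and 377047 to 410603 among N-cre;Fox1 mice. By edgeR 0 had an adjusted p and 4 an unadjusted p under 0.05, where 6.19% of all genes had the latter, and limma-voom called 0. Of these 4, 3 were higher and 1 was lower in N-cre;Fox1 mice. Slc1a2, Gfap and Gja1, 3 of the 18, were higher in every N-cre;Fox1 mouse, where 6.04% of all genes were. Without N-cre;Fox1 replicate 2, 12 of the 18 lay above 0, with a median of 0.02. The markers with the most counts were Slc1a2, Glul and Aldoc, a glutamate transporter, glutamine synthetase and an aldolase, at log2 fold changes of 0.12, -0.06 and 0.03. Gfap, the filament protein of reactive and fibrous astrocytes, was named after its values were seen. It had 24304, 23597 and 22722 normalized counts in N-cre and 34277, 28026 and 29773 in N-cre;Fox1 mice, at a log2 fold change of 0.38 ± 0.0700 (SE, edgeR adjusted p = 0.320). DESeq2's Wald test called it, at an adjusted p of 2.69e-06. Fgfr3, a growth factor receptor gene also named after its values were seen, was the lower one. It had 7217, 6323 and 6648 normalized counts in N-cre and 6441, 5393 and 5602 in N-cre;Fox1 mice, which overlapped. Its log2 fold change was -0.21 ± 0.0764 (SE, edgeR adjusted p = 0.783). Gja1, Gjb6, Mlc1 and Slc4a4 are on both lists.

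The vessel and meningeal lists were highest in the libraries rich in choroid plexus genes. The summed normalized count was 13818 to 15458 among N-cre and 14090.2 to 15884 among N-cre;Fox1 mice for 12 endothelial markers, 12843 to 13793 and 12365 to 14462 for 10 pericyte and smooth muscle markers, and 7210 to 9881 and 6406 to 15503 for 8 meningeal fibroblast markers. All 3 sums were highest in N-cre;Fox1 replicate 2, and next highest in N-cre replicate 3. Igf2 alone made up much of the meningeal sum in these libraries, at 9301 and 4871 normalized counts, against 2058 to 2830 in the other mice. The sums of 12 neuron markers, 10 oligodendrocyte markers and 10 microglia markers overlapped between the genotypes, at 576262 to 642120, 237033 to 289933 and 19617 to 21580.2 over the 6 mice. The markers with the most counts were Flt1, Slco1a4 and Abcb1a of endothelium, Rgs5, Vtn and Cspg4 of pericytes, Igf2, Dcn and Col1a2 of meninges and Ttr, Enpp2 and Kl of choroid plexus. They were Camk2a, Snap25 and Syt1 of neurons, and Mbp and Mobp of oligodendrocytes and Csf1r and Cx3cr1 of microglia were among them. Of the genes on these 7 lists edgeR, DESeq2 and limma-voom each called 0. By edgeR 1 pericyte and 1 oligodendrocyte marker passed an unadjusted p of 0.05, where 6.19% of all genes did.

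The genes whose levels ran most like those of Sspn and Aqp4 were not genes of the complex. Likeness was measured as the root mean square difference of log2 levels, each centred on the gene's own mean over the 6 mice, among 10359 genes. For Sspn the nearest were Suclg1, a subunit of succinyl-CoA ligase, at 0.0784, Nes, the gene of nestin, at 0.0909 and Bcas1, a gene of early myelinating oligodendrocytes, at 0.0927. Aqp4 came at place 77, at 0.167, Utrn at place 635, at 0.211, and Dmd at place 709, at 0.213. Nes, whose promoter drives Cre in both genotypes, had 710.1, 724 and 788 normalized counts in N-cre and 899, 1039 and 937 in N-cre;Fox1 mice. For Aqp4 the nearest were Hopx, a homeodomain gene of radial glia and astrocytes, at 0.0386, Med7, a subunit of Mediator, at 0.0415 and H2-D1, a class I histocompatibility gene, at 0.0430. Of the members Dtna came nearest to Aqp4, at place 1283, then Sgce at place 1502, and Sspn came at place 8841, again at 0.167. This distance counts the size of a difference as well as its direction. Sspn and Aqp4 were both higher in every N-cre;Fox1 mouse, at log2 fold changes of 0.52 and 0.21. Since both were chosen by that difference, the places are a description.

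Rbfox proteins bind UGCAUG in RNA, written TGCATG below, and copies of it were counted on the transcript strand in the main isoform of each gene. Sspn-201 and Sgcb-201 are shown because both hold 1 copy in the coding region and 1 in the 3′ UTR, while Sspn counts were higher in the N-cre;Fox1 mice and Sgcb counts overlapped. Each run of 30 bases has the motif in capitals. In Sspn-201, on the plus strand of chromosome 6, the motifs start at positions 145961169 and 145963138, and in Sgcb-201, on the minus strand of chromosome 5, they end at 73635590 and 73635434.
Sspn-201 coding: ggcctgatggtcTGCATGctggctgtggcc
Sspn-201 3′ UTR: ttcagacaaaatTGCATGaatgccacagta
Sgcb-201 coding: cgctacaagctcTGCATGtgtgcagatggc
Sgcb-201 3′ UTR: cctttttaagaaTGCATGtgaaccatgttt

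The 3′ UTR of the main isoform of Sgce held 1 copy as well and that of Dtna 2 copies, while those of Dmd, Dag1, Utrn and Aqp4 held 0. In the coding region Aqp4, Dag1 and Sgce held 1 copy each, Dmd 2, and Dtna and Utrn 0. The shorter GCATG, which the study also took as an Rbfox1 site, had 3 copies in the 3′ UTR of both Sspn and Aqp4. It had 5 in that of Dtna, 2 each in those of Sgcb, Dmd and Sgce, 1 in that of Dag1 and 0 in that of Utrn. Of 14362 main isoforms, 34.0% had TGCATG in the 3′ UTR and 30.5% in the coding region. For the 1373 isoforms with a 3′ UTR about as long as that of Sspn-201 the 3′ UTR share was 71.7%. For lengths like that of Aqp4 it was 74.1%, of Dtna 73.8%, of Sgcb 60.4% and of Dag1 59.1%. For lengths like those of Dmd, Utrn and Sgce it was 58.3%, 50.4% and 6.79%. The presence of these letters is a description, and binding was not measured in these libraries. Whether the motif has a part in the counts of Sspn, Sgcb or any other member was not tested.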

How the data were processed

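Hippocampal RNA of 6 mice, 3 of each genotype, was made into stranded total RNA libraries. Per the labels and the study's methods, the authors used Cutadapt 1.18 for trimming and STAR 2.5.2b for mapping to mm10, and estimated isoforms with RSEM 1.3.0 on a GENCODE annotation. They deposited expected counts of 133944 isoforms, not normalized, of which 81.9% to 82.7% of values above 0 per mouse are not whole numbers. Whether reads were assigned by strand is not given in the sources used here. Sspn shares 69 exon bases with the antisense gene Sspnos, which had no count.

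Expected counts were rounded, and summed by gene symbol for genes. Genes and isoforms were filtered with filterByExpr (minimum count 10, minimum total 15), normalized by TMM and compared with the 2-sided quasi-likelihood test of edgeR 4.0.16 (robust, genotype as the only term) in R 4.3.3, with Benjamini-Hochberg adjustment over all genes or isoforms tested and a threshold of 0.05. The study's own test, EBSeq, was not installed. Normalized counts are counts at the mean effective library size. Levels per length used isoform lengths of GENCODE M21, of the same build, which holds 66 of the 67 isoforms in the same version. For Aqp4 the later version was used. Promoter windows are RefSeq's, with none at hand for Sgce, Dtna and Aqp4. Motifs were counted as exact letters.

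The members and gene lists were chosen with earlier results of these data known. All 9 members are named, with isoforms of at least 5% of a gene's counts or an unadjusted p under 0.05, the 3 genes with the smallest p and any called gene of each companion list, the summed level and the 3 most counted genes of each marker list, and the 3 genes most like Sspn and Aqp4 among those with a mean of at least 500 normalized counts. Values of 3 single genes of these lists are not reported here. The fits were tested on simulated counts in which 200 genes or isoforms were changed 2-fold. The gene fit recovered 78.5% of them, with 14.7% of its calls false. The isoform fit recovered 15%, with 23.1% of its calls false. Alternatives were RLE and upper quartile normalization, other filters, DESeq2 1.42.0, limma-voom (limma 3.58.1), unrounded counts, a block for the replicate number, a term for Xist counts above 1000, and each mouse left out. A fit without N-cre replicate 3 and N-cre;Fox1 replicate 2 was added after seeing the data. With 3 mice per genotype, precision is set by how far they differ from each other.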

Additional observations from a re-analysis of the deposited data

How the results depend on the processing

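The log2 fold changes of Sspn, Aqp4, Dmd, Dag1, Sgce, Dtna and Utrn kept their sign in each of 16 alternatives. That of Sspn lay between 0.50 and 0.55. Its adjusted p in edgeR's test was 0.102, 0.304 and 0.138 without N-cre replicate 1, 2 and 3, 0.114 without N-cre;Fox1 replicate 3, and 0.0849 without the 2 libraries rich in choroid plexus genes, a fit chosen after seeing the data. In the other 2 fits without a mouse and in each other fit with all 6 mice except that with the replicate block it stayed at or under 0.0453. The adjusted p of Aqp4 was 0.0320 with no filter in edgeR and 0.0395 with DESeq2, and 0.204 to 1.00 in the other fits. The cause of these differences was not tested.

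With the replicate number as a block, 0 members were called, and the adjusted p of Sspn in edgeR's test was 0.0728. The labels do not say whether the numbers pair the mice, and correlations between mice cannot decide it. Over 10930 genes the correlation of same-numbered mice was 0.576, -0.188 and -0.320. The largest, 0.669, was that of N-cre replicate 3 with N-cre;Fox1 replicate 2, the 2 libraries rich in choroid plexus genes. The replicates numbered 1, at 0.576, were the libraries high in Xist.

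Called genes numbered 5, and 45 with no filter, 50 with DESeq2, 11 with the Xist term and 2 to 29 with each mouse left out, N-cre replicate 2 for the lowest and N-cre;Fox1 replicate 1 for the highest. Called isoforms numbered 0, and 10 with no filter, 6 with at least 10 counts in every mouse, 215 with DESeq2 and 1 with counts not rounded. Called members numbered 1, and 2 with no filter and with DESeq2, 0 without the 2 libraries, and 0 to 1 with each mouse left out. DESeq2 called 1 member isoform. No filter and DESeq2 each called 1 gene of the endfoot list and 1 astrocyte marker, Kcnj10 and Gfap, and the Xist term called 1 astrocyte marker, Gfap. The other lists had 0 called genes in every fit.

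Signs turned in these uncalled values. Over the fits that left out each mouse in turn, the log2 fold change ranged from -0.051 to 0.0073 for Sgcb, from -0.29 to 0.27 for Sgcd, from -0.057 to 0.0012 for Sgcb-201, from -0.13 to 0.15 for Sgce-205, from -0.059 to 0.74 for Sgce-202, from -0.42 to 0.13 for Sgce-211, from -0.33 to 0.91 for Sgce-209 and from -0.042 to 0.045 for Utrn-206. Without the 2 libraries it was 0.0298 for Sgcb, 0.0240 for Sgcb-201, -0.17 for Sgce-205, -0.041 for Utrn-206 and -0.0119 for the 4364-base Dag1 isoform. Utrn-206 had -0.0058 with upper quartile normalization. Depth limits Sgcd, at 8 to 23 counts per mouse.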
